A study of Mus musculus with 8 samples.

Results

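Glutathione S-transferases (GSTs) were followed here through 10 genes of the 46078 in the count table, all chosen by name from the cytosolic and microsomal branches of the family. They were chosen with earlier results of these data known, so counts of members called are not independent of those results. The cytosolic members were Gsta3, Gsta4, Gstm1, Gstm5, Gstp1, Gstp2 and Gsto1, and the microsomal members were Mgst1, Mgst2 and Mgst3. The study profiled polyadenylated RNA of BV-2 cells, an immortalized mouse microglial line, in 4 groups of 2 biological replicates each, 8 libraries in all. It asked how aged garlic extract (AGE) and FruArg, a sugar-modified arginine found in it, alter the response to bacterial lipopolysaccharide (LPS). All cells were first kept 4 h in medium lacking serum. Control cells received solvent, and the LPS group received LPS of a rough Escherichia coli strain at 100 ng/mL for 20 h. The AGE+LPS group received aqueous AGE at 0.5% (v/v) 1 h ahead of the same LPS dose, and the FruArg+LPS group received FruArg at 3 mM with the same timing. Neither AGE nor FruArg was given without LPS, so the effect of each alone on these genes was not measured.

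The deposited table held raw read counts, with totals of 2707500 and 8995052 for control replicates 1 and 2, 8720784 and 12069807 for LPS, 6795464 and 6669072 for AGE+LPS, and 4692715 and 5822113 for FruArg+LPS. By their labels, every replicate 1 was sequenced in lane 3 and every replicate 2 in lane 6 under another run name, so each lane held 1 library of every group. Levels are given as CPM, counts scaled to a common library total with the trimmed mean of M-values (TMM), and a count of 0 allows up to 3 counts, which is 0.903 CPM in control replicate 1 and 0.284 to 0.679 CPM in the other libraries. These limits cover counting error alone, because the reads carried no molecular identifiers. The 12 microglia and macrophage markers examined summed to 3011 and 3600 CPM in control libraries, 3760 and 4368 in LPS, 4087 and 4732 in AGE+LPS, and 5033 and 5076 in FruArg+LPS. Adgre1 led them at 606 and 679 CPM in control cells and 1540 to 2262 CPM in the 6 libraries given LPS, and without it the others summed to 2405 and 2921 CPM in control libraries, 2220 and 2559 in LPS, 2223 and 2531 in AGE+LPS and 2880 and 2815 in FruArg+LPS. Between LPS and control cells, 3 of the 12 markers (Adgre1, Cd68 and Spi1) were higher in both LPS libraries than in both control libraries, 6 were lower and 3 overlapped, counting a 0 as up to 3 counts. Cd68 stood at 344 and 482 CPM in control cells and 538 and 580 in LPS, and Spi1 at 77.4 and 116 against 155 and 148. Among the lower ones were Trem2 at 423 and 495 CPM in control cells and 209 and 143 in LPS, Tyrobp at 544 and 574 against 320 and 296, and Itgam at 151 and 171 against 79.1 and 72.7. In AGE+LPS against LPS 5 markers were higher, 5 lower and 2 overlapped, with Itgam at 162 and 170 CPM, Csf1r at 465 and 484 against 294 and 267 in LPS, and Cd68 at 361 and 382. In FruArg+LPS against LPS 5 were higher, 1 was lower and 6 overlapped, and between the co-treatments 4 were higher with FruArg, 2 lower and 6 overlapped. Cx3cr1 was among the 5 higher in AGE+LPS against LPS and the 2 lower between the co-treatments. It was near the detection limit there, with 4 and 2 counts in LPS, 6 and 5 in AGE+LPS, and 0 and 2 in FruArg+LPS. Tmem119, a marker of resident microglia, was near the detection limit throughout, with 1 and 4 counts in control cells and 0 to 6 in the other libraries. Marker sets of neurons, astrocytes, fibroblasts and hepatocytes summed to at most 3.12 CPM in any library, while the oligodendrocyte set summed to 24.9 to 29.8 CPM, nearly all of it Cnp. In these bulk libraries a smaller number of cells that express a gene and less RNA per cell cannot be told apart, and the part of the differing marker sums in the results was not tested.

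GSTs couple the thiol of glutathione to electrophilic compounds, which makes toxins and products of lipid oxidation more soluble and ready for export. The cytosolic enzymes form classes such as alpha, mu, pi and omega, while the microsomal ones belong to the membrane-bound MAPEG superfamily, which also makes leukotrienes and prostaglandin E. Many family genes are known targets of Nrf2, the transcription factor that binds antioxidant response elements, and LPS drives both oxidant production and eicosanoid synthesis in microglia.

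The 8 members with a signal are taken here by class, with each library's level given as replicate 1 and then replicate 2. Gsta3 (ENSMUSG00000025934, GRCm38 chr1:21240589-21265661, plus strand) encodes an alpha-class enzyme that conjugates activated aflatoxin. Its level was 5.12 and 6.15 CPM in control cells, 6.45 and 13.2 in LPS, 19.0 and 31.4 in AGE+LPS, and 27.4 and 33.2 in FruArg+LPS. All 4 co-treated libraries were above all 4 others, and the ranges of the AGE+LPS and FruArg+LPS groups overlapped. The counts behind these levels ran from 17 in control replicate 1 to 204 in AGE+LPS replicate 2. Gsta4 (ENSMUSG00000032348, chr9:78182774-78209349, plus strand), the alpha-class enzyme that clears 4-hydroxynonenal, had 0 counts in all 8 libraries and was not detectable at this depth.

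Gstm1 (ENSMUSG00000058135, chr3:108012255-108017973, minus strand), a mu-class detoxifying enzyme, stood at 19.3 and 24.2 CPM in control cells, 40.4 and 69.4 in LPS, 65.7 and 105 in AGE+LPS, and 111 and 137 in FruArg+LPS. Both control libraries were the lowest of the 8 and both FruArg+LPS libraries the highest, while the LPS and AGE+LPS ranges overlapped. Gstm5 (ENSMUSG00000004032, chr3:107895821-107898686, plus strand), another mu-class gene, was measured at 6.62 and 9.56 CPM in control cells, 3.97 and 5.49 in LPS, 5.05 and 6.16 in AGE+LPS, and 8.37 and 7.88 in FruArg+LPS. These Gstm5 levels rested on 22 to 101 counts per library, and the LPS range lay under that of the control and FruArg+LPS groups, which overlapped each other.

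Gstp1 (ENSMUSG00000060803, chr19:4035407-4037985, minus strand) encodes the pi-class enzyme that also binds and restrains stress kinases. Its level was 13.5 and 15.7 CPM in control cells, 23.8 and 31.3 in LPS, 53.3 and 47.6 in AGE+LPS, and 80.5 and 64.3 in FruArg+LPS. No 2 groups overlapped, and they stood in the order control, LPS, AGE+LPS, FruArg+LPS from low to high. The neighbouring copy Gstp2 (ENSMUSG00000038155, chr19:4040285-4046023, minus strand) had 1 count in the whole table, in AGE+LPS replicate 2. Gsto1 (ENSMUSG00000025068, chr19:47854970-47864790, plus strand), an omega-class thioltransferase that also removes glutathione from proteins, stood at 182 and 251 CPM in control cells, 241 and 266 in LPS, 194 and 221 in AGE+LPS, and 226 and 207 in FruArg+LPS. The control range of Gsto1 overlapped those of all 3 other groups, although its counts were the deepest of the family at 604 to 2809 per library.

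Among the microsomal members, Mgst1 (ENSMUSG00000008540, chr6:138140316-138156755, plus strand) encodes a membrane-bound transferase and peroxidase that guards against lipid peroxides. It was measured at 84.3 and 120.2 CPM in control cells, 152 and 219 in LPS, 107 and 151 in AGE+LPS, and 165 and 178 in FruArg+LPS. The LPS and FruArg+LPS libraries were above both control libraries, and the AGE+LPS range overlapped the control range. Mgst2 (ENSMUSG00000074604, chr3:51660360-51682677, plus strand), which can join glutathione to leukotriene A4 to make leukotriene C4, had 6.93 and 10.03 CPM in control cells, 1.36 and 2.18 in LPS, 13.3 and 17.3 in AGE+LPS, and 12.4 and 9.38 in FruArg+LPS. Both LPS libraries were the lowest of the 8, on 11 and 23 counts, and both AGE+LPS libraries were the highest, on 92 and 112 counts. Mgst3 (ENSMUSG00000026688, chr1:167371966-167393841, minus strand), a glutathione-dependent peroxidase of lipid hydroperoxides, had 161 and 157 CPM in control cells, 34.6 and 28.8 in LPS, 47.0 and 39.0 in AGE+LPS, and 71.7 and 52.5 in FruArg+LPS. No 2 groups overlapped for Mgst3, and control cells held the highest level and LPS cells the lowest.

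**Figure D1:**
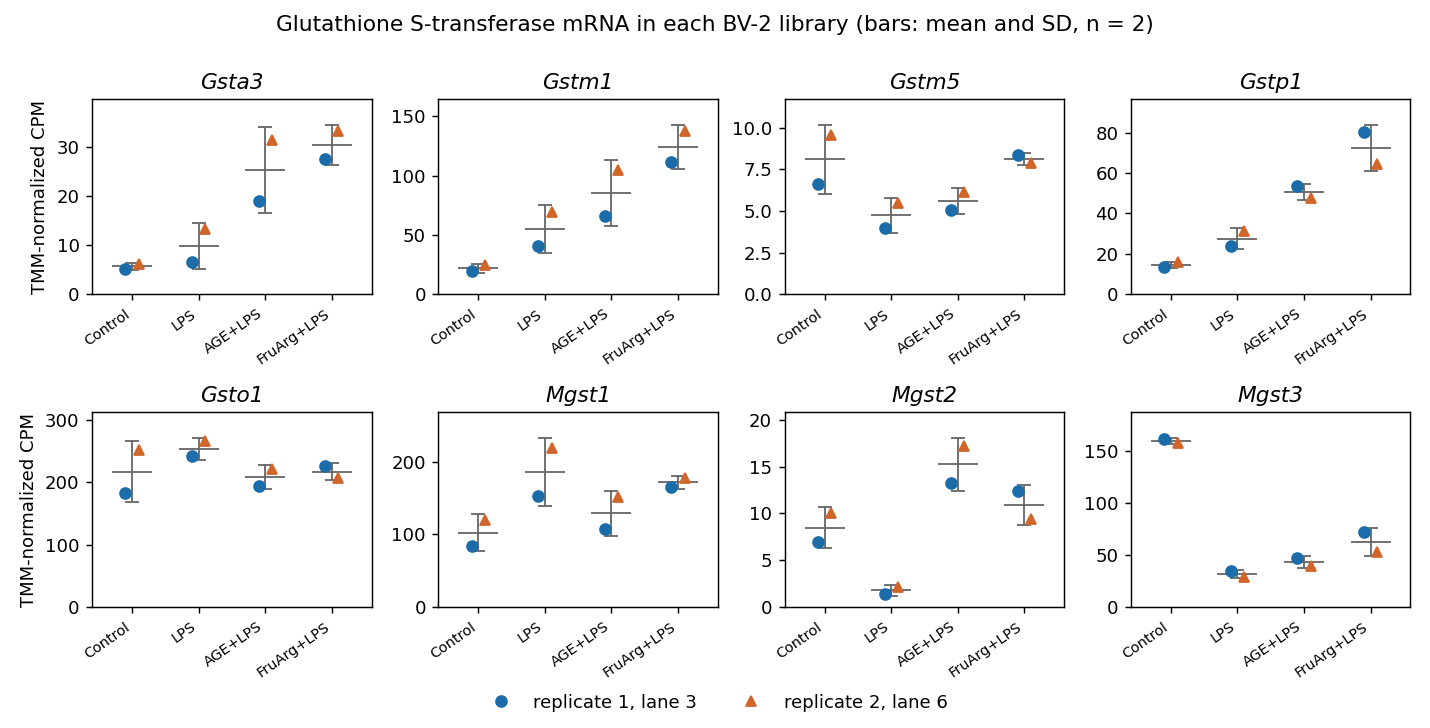
TMM-normalized CPM (vertical axes, each from 0) of the 8 detected glutathione S-transferase genes in the 4 groups of BV-2 cells (horizontal axes). Circles are replicate 1 (lane 3), triangles replicate 2 (lane 6), and bars the mean and SD of 2 libraries; Mgst3 was highest in control cells at 161 and 157 CPM, and Gstp1 was highest in FruArg+LPS at 80.5 and 64.3 CPM.

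Set side by side as group means of CPM per kilobase of exon, the order of the family differed between control and treated cells. In control cells the order of levels per kilobase was Mgst3 at 145 ± 2.68 (SD, n = 2 here and below), Gsto1 at 106.9 ± 24.1, Mgst1 at 50.8 ± 12.6, Gstm1 at 14.8 ± 2.38, Gstp1 at 9.45 ± 0.984, Gstm5 at 6.33 ± 1.62, Mgst2 at 2.29 ± 0.592 and Gsta3 at 1.30 ± 0.168. No neighbours in that control order overlapped. The order depends on the length used, the union of all annotated exons, which was 3703 bases for Mgst2 and 1278 for Gstm5. In CPM not divided by length, Gstm5 (6.62 and 9.56) and Mgst2 (6.93 and 10.03) overlapped in control cells. In LPS cells Gsto1 led at 125 ± 8.66 CPM per kilobase, Mgst1 followed at 92.2 ± 23.4, Gstm1 stood at 37.3 ± 13.9, and Mgst3 was next at 28.9 ± 3.77, where Gstm1 and Mgst3 overlapped. Mgst2 was the lowest detected member in LPS cells at 0.478 ± 0.155 CPM per kilobase. In AGE+LPS cells Gsto1 stood at 102.6 ± 9.39 CPM per kilobase, Mgst1 at 64.1 ± 15.5, Gstm1 at 57.9 ± 18.8, Mgst3 at 39.2 ± 5.17 and Gstp1 at 32.6 ± 2.62. In FruArg+LPS cells the same 5 genes were at 107.2 ± 6.70, 85.1 ± 4.54, 84.3 ± 12.6, 56.6 ± 12.4 and 46.8 ± 7.40 CPM per kilobase. Mgst1 and Gstm1 overlapped in both co-treated groups, and Mgst3 and Gstp1 overlapped in FruArg+LPS. The 10 members together summed to 479 and 593.9 CPM in control libraries, 503.9 and 635 in LPS, 504.6 and 618.5 in AGE+LPS, and 702.7 and 689.6 in FruArg+LPS, so under TMM scaling every FruArg+LPS library was above the other 6. As a share of total counts this order did not hold, with 0.0588% and 0.0698% in control libraries, 0.0466% and 0.0556% in LPS, 0.0515% and 0.0602% in AGE+LPS, and 0.0662% and 0.0632% in FruArg+LPS.

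In LPS against control cells 3 members were called. Mgst3 and Mgst2, which stood at 159 ± 2.94 and 8.48 ± 2.19 CPM in control cells, were down-regulated 5.01-fold and 4.77-fold. Gstm1 was up-regulated 2.51-fold from 21.7 ± 3.50 CPM. Both replicates showed each of these directions. A gene was counted as differentially expressed (DEG) when edgeR gave an adjusted p under 0.05 over all genes tested and a change of at least 2-fold, which is 1 on the log2 scale. Of the 8 members tested in LPS against control cells, 1 was up-regulated and 2 were down-regulated, where 11.5% of all 12888 genes tested were up-regulated and 11.1% down-regulated, so the up-regulated share of the family was near that of all genes. The members' median log2 fold change was 0.51, beside 0.02 over all genes tested. The log2 fold change of Mgst3 was -2.33 (SE 0.217, adjusted p = 8.9e-05 in edgeR), with -2.22 in lane 3 and -2.45 in lane 6. That of Mgst2 was -2.25 (SE 0.427, adjusted p = 0.0037 in edgeR), with -2.34 in lane 3 and -2.20 in lane 6. For Gstm1 it was 1.33 (SE 0.282, adjusted p = 0.0066 in edgeR), with 1.07 in lane 3 and 1.52 in lane 6. The Gstm1 result missed the 2-fold minimum without LPS replicate 2, at 0.92, and with scaling by library size alone, at 0.90. Gstp1 and Mgst1 passed the adjusted p in edgeR, both at 0.024, at less than 2-fold, with log2 fold changes of 0.91 (SE 0.255) and 0.86 (SE 0.241), and with scaling by library size neither passed, at 0.49 and 0.43 (adjusted p = 0.16 and 0.18 in edgeR). Without LPS replicate 1, 6 members were DEGs in edgeR among 3256 of 13522 genes, with Gsta3 at 1.19, Gstp1 at 1.07 and Mgst1 at 1.08 added, and without control replicate 2 Mgst1 was a DEG at 1.09. Gsta3 differed by 0.79 (SE 0.397, adjusted p = 0.17 in edgeR), at 0.33 in lane 3 and 1.10 in lane 6. Gstm5 was at -0.79 (SE 0.363, adjusted p = 0.13 in edgeR), and with scaling by library size it became a DEG at -1.22. Gsto1 was at 0.23 (SE 0.211, adjusted p = 0.44 in edgeR) and turned to -0.19 with scaling by library size, which moved the median of all genes to -0.40 in this comparison. Adjusted p in edgeR with the replicate block was 0.027 for Gsta3 at 0.83 and 0.048 for Gstm5 at -0.77, both under 2-fold.

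Against LPS alone, co-treatment with AGE raised Mgst2 8.44-fold, from 1.77 ± 0.574 to 15.3 ± 2.82 CPM, which placed it above both control libraries. Gsta3 stood at 25.2 ± 8.77 CPM against 9.80 ± 4.74 in LPS cells, and Gstp1 at 50.5 ± 4.06 against 27.6 ± 5.31, each higher in both replicates. Mgst1 stood at 129 ± 31.1 CPM against 185.5 ± 47.1 and was lower in both replicates. Mgst2 was the 1 member up-regulated of 8 tested and 0 were down-regulated, beside 0.292% and 0.503% of all 12317 genes tested, while 3 members and 2194 of all 12317 genes had an unadjusted p under 0.05. DESeq2 called 2 members up-regulated and 0 down-regulated, where it called 215 genes up-regulated and 313 down-regulated of 21850 tested. The log2 fold change of Mgst2 was 3.08 (SE 0.376, adjusted p = 0.039 in edgeR), with 3.28 in lane 3 and 2.99 in lane 6. Gsta3 differed by 1.36 (SE 0.405, adjusted p = 0.15 in edgeR), and with the replicate number as a block it was a DEG at 1.38 (SE 0.181, adjusted p = 2.4e-10 in edgeR), with 1.56 in lane 3 and 1.26 in lane 6. With that replicate block 2 members were up-regulated, beside 4.91% of all genes up-regulated and 4.82% down-regulated. Gsta3 also passed in DESeq2 at 1.35 (adjusted p = 0.049). In edgeR with a filter of at least 1 count it passed at 1.34 (adjusted p = 0.0014, among 927 of 21850 genes). With 1 library left out Gsta3 ran from 0.96 without LPS replicate 1, under the 2-fold minimum, to 1.93 without LPS replicate 2. Gstp1 differed by 0.87 (SE 0.234, adjusted p = 0.12 in edgeR), with 1.16 in lane 3 and 0.60 in lane 6. Gstm1 was at 0.64 (SE 0.330), Mgst3 at 0.44 (SE 0.240) and Gstm5 at 0.24 (SE 0.363), with adjusted p of 0.38, 0.41 and 0.80 in edgeR. Mgst1 was at -0.52 (SE 0.263, adjusted p = 0.36 in edgeR), with -0.51 in lane 3 and -0.54 in lane 6, and Gsto1 at -0.29 (SE 0.197, adjusted p = 0.51 in edgeR). With the replicate block these values stayed under 2-fold, but adjusted p in edgeR was 3e-08 for Gstp1, 5.7e-07 for Gstm1, 5.5e-06 for Mgst1, 0.0046 for Mgst3, 0.011 for Gsto1 and 0.54 for Gstm5, and 7 of 8 members and 5790 of 12317 genes had an unadjusted p under 0.05. Each of the 8 members kept its sign in both lanes. The members' median was 0.54, beside -0.0005 over all genes tested.

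Co-treatment with FruArg was set against LPS alone in the same way. Mgst2 stood at 10.9 ± 2.17 CPM in FruArg+LPS cells against 1.77 ± 0.574 in LPS cells, Gsta3 at 30.3 ± 4.12 against 9.80 ± 4.74, and Gstp1 at 72.4 ± 11.5 against 27.6 ± 5.31. Gstm1 stood at 124 ± 18.6 CPM against 54.9 ± 20.5, and Mgst3 at 62.1 ± 13.6 against 31.7 ± 4.13. All 5 genes were higher in both replicates, and their FruArg+LPS and LPS ranges did not overlap. The share of all genes whose ranges separate in this way is not given here, so this describes these 5 genes alone. In edgeR without a block, 0 of 8 members and none of the 12071 genes that passed its expression filter were called, 0% in either direction. With a filter of at least 1 count instead, 503 of 21303 genes were DEGs in edgeR, 4 of them members, Mgst2 at 2.62 (adjusted p = 0.00032), Gsta3 at 1.65 (0.00079), Gstp1 at 1.42 (0.00092) and Gstm1 at 1.21 (0.0037). At an unadjusted p under 0.05 stood 1543 genes and 5 members, and DESeq2 called 195 genes of 21303 tested, 4 of them members. With the replicate block edgeR called 766 genes, 2.87% up-regulated and 3.48% down-regulated, and 5 of the 8 members, all up-regulated. The study had named Gsta3, Gstm5, Gstp1 and Mgst2 as up-regulated when discussing FruArg, so this member count is not independent of its results. Of 9 other GSTs tested, the block gave 0 up-regulated and 1 down-regulated, with a median log2 fold change of 0.33. Without the block the log2 fold change of Mgst2 was 2.64 (SE 0.500, adjusted p = 0.18 in edgeR), and with it 2.63 (adjusted p = 5.6e-05), with 3.19 in lane 3 and 2.11 in lane 6. Gsta3 was at 1.67 (SE 0.377, adjusted p = 0.21 in edgeR) without the block and 1.72 (adjusted p = 3.1e-06) with it, at 2.08 in lane 3 and 1.34 in lane 6. The unblocked value of Gstp1 was 1.44 (SE 0.277, adjusted p = 0.18 in edgeR) and the blocked value 1.43 (adjusted p = 8.3e-08), at 1.76 in lane 3 and 1.04 in lane 6. Gstm1 moved from 1.22 (SE 0.298, adjusted p = 0.21 in edgeR) to 1.26 (adjusted p = 3.4e-07) with the block, at 1.46 in lane 3 and 0.98 in lane 6. Mgst3 was at 1.01 (SE 0.283, adjusted p = 0.26 in edgeR) and at 1.00 (adjusted p = 8.9e-05) with the block, just past the 2-fold minimum, and DESeq2 did not call it. With 1 library left out and no block, Mgst2 ran from 2.36 to 2.99, Gsta3 from 1.26 to 2.24 and Gstp1 from 1.26 to 1.62. Gstm1 ran from 0.89 without LPS replicate 1 to 1.63, and Mgst3 from 0.77 without FruArg+LPS replicate 1 to 1.21. Both thus fell under the 2-fold minimum in a fit. Gstm5 was at 0.82 (SE 0.441, adjusted p = 0.44 in edgeR), Gsto1 at -0.18 (SE 0.227) and Mgst1 at -0.07 (SE 0.250, 0.12 in lane 3 and -0.30 in lane 6). The members' median was 1.12, beside -0.01 over all genes tested.

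Set directly against each other, the co-treatments differed by less than 2-fold in mean level for each member, and no difference passed the test. Gstm1, Gstm5, Gstp1, Mgst1 and Mgst3 were higher in both FruArg+LPS libraries than in both AGE+LPS libraries, and Mgst2 was lower. The ranges of Gsta3 and Gsto1 overlapped. How many of all genes tested separate in this way is not given here, so these ranges describe single genes alone. AGE was dosed as a volume share of an extract and FruArg as a concentration, so the doses differ and are not matched. Gstm1 stood at 124 ± 18.6 CPM in FruArg+LPS against 85.3 ± 27.7 in AGE+LPS, Gstp1 at 72.4 ± 11.5 against 50.5 ± 4.06, and Mgst3 at 62.1 ± 13.6 against 43.0 ± 5.68. Mgst2 stood the other way, at 10.9 ± 2.17 CPM in FruArg+LPS against 15.3 ± 2.82 in AGE+LPS. edgeR called 0 of 8 members and 0 genes, 0% up-regulated and 0% down-regulated of 11915 tested, with 668 genes and 0 members at an unadjusted p under 0.05, and DESeq2 called 4 genes and 0 members. With the replicate block 0.546% of genes were up-regulated and 0.352% down-regulated in edgeR, and again 0 members were, although 4 members and 2176 genes had an unadjusted p under 0.05. The difference in log2 fold change had a 95% interval of -0.04 to 1.19 around 0.58 for Gstm1, -0.03 to 1.14 around 0.55 for Gstp1, and -0.07 to 1.19 around 0.56 for Mgst3. With the replicate block 4 intervals were above 0, at 0.25 to 0.95 for Gstm1, 0.17 to 0.92 for Gstp1, 0.12 to 0.80 for Mgst1 and 0.16 to 0.94 for Mgst3, with adjusted p of 0.054, 0.10, 0.13 and 0.11 in edgeR. For Mgst2 the interval ran from -1.27 to 0.36 around -0.45, and for Gsta3 from -0.40 to 1.00 around 0.30, and was at -0.0165 without AGE+LPS replicate 1. Mgst1 was at 0.44 (-0.10 to 0.99), Gstm5 at 0.57 (-0.42 to 1.55), and Gsto1 at 0.10 (-0.41 to 0.60), turning to -0.04 with scaling by library size. Adjusted p ran from 0.84 to 0.95 in edgeR for the 8 members, and the intervals reach 1.55 for Gstm5, so they do not show that AGE and FruArg act alike on the family. The members' median was 0.50, beside -0.02 over all genes tested.

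Against control cells, both co-treatments left the cells with higher Gsta3, Gstm1 and Gstp1 and lower Mgst3. With AGE+LPS, Gsta3 was up-regulated 4.34-fold, Gstm1 3.83-fold and Gstp1 3.39-fold, and Mgst3 was down-regulated 3.75-fold. With FruArg+LPS, Gstm1 was up-regulated 5.78-fold, Gsta3 5.41-fold and Gstp1 5.02-fold, and Mgst3 was down-regulated 2.52-fold. Every co-treated library was above both control libraries for the first 3 genes and under both for Mgst3. In AGE+LPS 3 of 8 members tested were up-regulated and 1 was down-regulated, beside 7.64% and 7.41% of all 12449 genes tested. In FruArg+LPS the counts were again 3 and 1 of 8, beside 9.59% and 7.84% of 12038 genes tested. The 2 comparisons share the control libraries, and their values are given side by side without a test between them.

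Gsta3 had a log2 fold change of 2.12 (SE 0.326, adjusted p = 0.0022 in edgeR) in AGE+LPS, with 1.89 in lane 3 and 2.35 in lane 6, and 2.44 (SE 0.296, adjusted p = 0.0010 in edgeR) in FruArg+LPS, with 2.42 and 2.43. Gstm1 was at 1.94 (SE 0.267, adjusted p = 0.0013 in edgeR), with 1.77 in lane 3 and 2.11 in lane 6, and at 2.53 (SE 0.226, adjusted p = 0.00028 in edgeR), with 2.53 and 2.50. Gstp1 was at 1.76 (SE 0.227, adjusted p = 0.00092 in edgeR), with 1.98 in lane 3 and 1.60 in lane 6, and at 2.33 (SE 0.244, adjusted p = 0.00056 in edgeR), with 2.57 and 2.03. Mgst3 was at -1.91 (SE 0.206, adjusted p = 0.00036 in edgeR), with -1.78 in lane 3 and -2.01 in lane 6, and at -1.33 (SE 0.215, adjusted p = 0.0038 in edgeR), with -1.17 and -1.58. Mgst1 was at 0.31 (SE 0.237, adjusted p = 0.41 in edgeR) in AGE+LPS and at 0.77 (SE 0.209, adjusted p = 0.032 in edgeR) in FruArg+LPS, where it missed the 2-fold minimum. Mgst2, down-regulated by LPS alone, was at 0.79 (SE 0.304, adjusted p = 0.11 in edgeR, 0.0094 with the replicate block) against control cells in AGE+LPS and at 0.37 (SE 0.373, adjusted p = 0.53 in edgeR) in FruArg+LPS, the latter turning to -0.03 with scaling by library size. Gstm5 was at -0.58 (SE 0.351) and 0.01 (SE 0.386) and Gsto1 at -0.08 (SE 0.206) and 0.03 (SE 0.203), where the FruArg+LPS values of Gstm5 and Gsto1 turned to -0.39 and -0.37 with scaling by library size, and to -0.20 and -0.17 without control replicate 1. Leaving out control replicate 2 turned Gsto1 to 0.13 in AGE+LPS. The members' medians were 0.55 and 0.57, beside 0.01 and 0.002 over all genes tested.

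**Figure D2:**
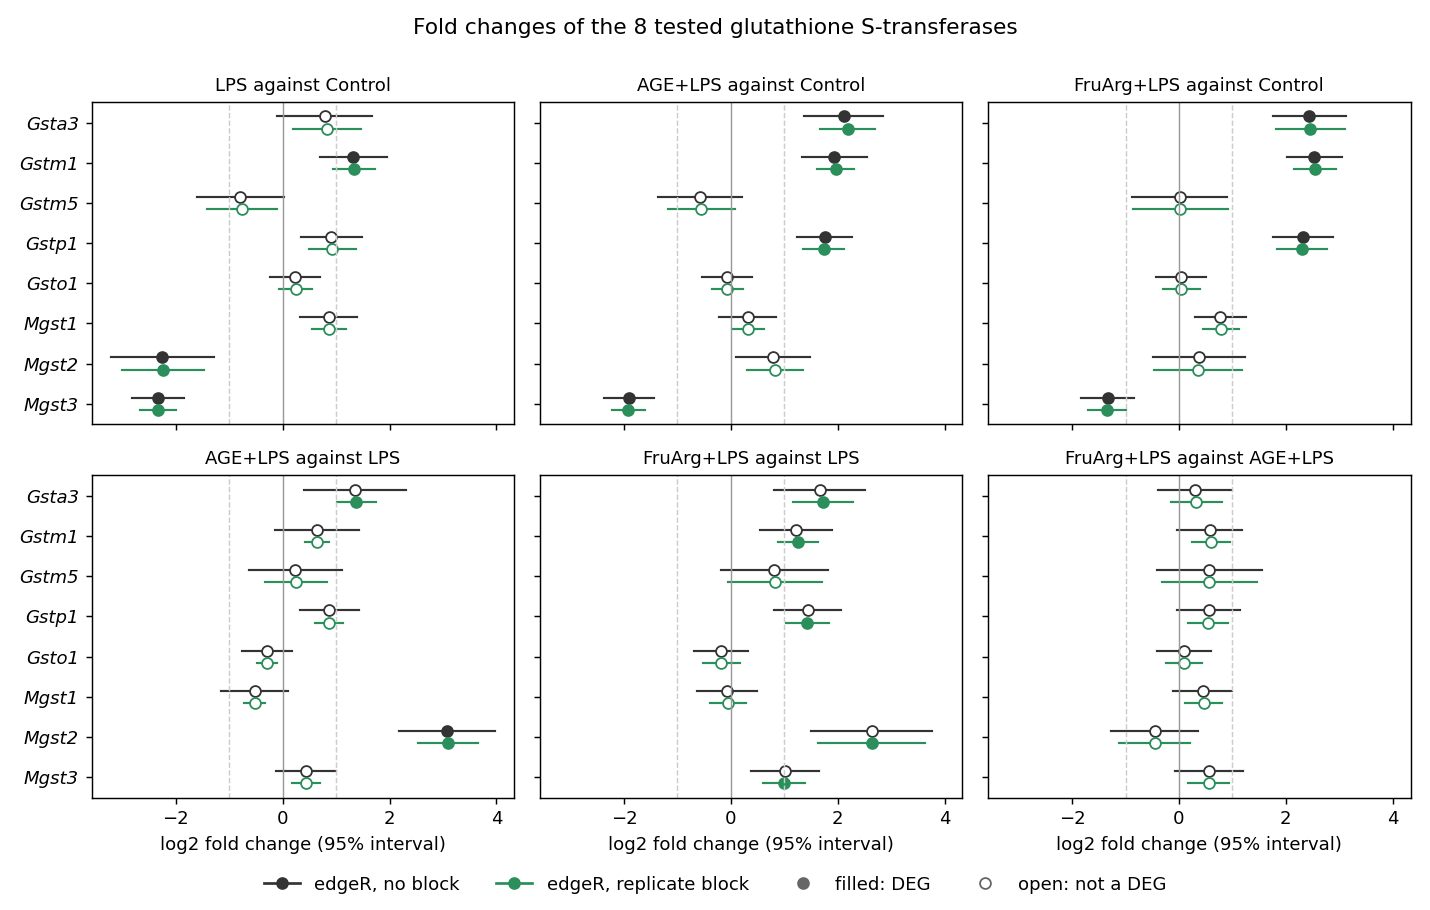
Log2 fold changes with 95% intervals (horizontal axes) of the 8 tested glutathione S-transferases (vertical axes) in 6 comparisons, from edgeR without a block (dark) and with the replicate number as a block (green), where filled points are DEGs. Mgst3 was at -2.33 and Mgst2 at -2.25 in LPS against control cells, and Mgst2 was at 3.08 in AGE+LPS against LPS; with scaling by library size Gsto1 turned to the other sign in LPS and in FruArg+LPS against control cells and in FruArg+LPS against AGE+LPS, as Gstm5 and Mgst2 did in FruArg+LPS against control cells.

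Across the 8 libraries, Gsta3, Gstm1 and Gstp1 followed one another, with Pearson's r of log2 CPM of 0.962 for Gsta3 with Gstm1, 0.942 for Gsta3 with Gstp1 and 0.948 for Gstm1 with Gstp1. These r describe 4 groups of 2 libraries, which share treatments and lanes, and carry no test. Mgst3 ran opposite to Mgst1 at -0.707, and Mgst2 and Mgst3, both lowest in LPS cells, had 0.374. Some members also differed by lane, since Gsta3, Gstm1 and Mgst1 were higher in replicate 2 than in replicate 1 of every group, and Mgst3 was higher in replicate 1 of every group. The cytosolic and the microsomal member with the most counts were Gsto1 with 12895 and Mgst1 with 8490. Among 8479 genes with a mean of at least 10 CPM, the 3 most like Gsto1 across the 8 libraries were Trmt10c at an r of 0.928, Pbdc1 at 0.925 and Nsmce2 at 0.910. Those most like Mgst1 were Fbxw2 at 0.990, Rab8a at 0.988 and Maco1 at 0.984. Both sets were picked as the highest r of 8479 genes over 8 libraries. How high r would run among unrelated genes was not tested.

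Close copies within the family can take each other's reads, and how reads with several matches were counted is not given in the sources used here. Reads were 100 bases long, and 25.1% of the 100-base windows of Gstp1 transcripts occur letter for letter in Gstp2 and 10.8% in the pseudogene Gstp-ps. In the other direction 39.5% of Gstp-ps windows occur exactly in Gstp1 and 73.3% match it within 2 mismatches, and Gstp-ps is closer to Gstp2, with 51.1% exact and 99.1% within 2 mismatches. Of the Gstp2 windows 41.6% occur exactly in Gstp1 and 23.3% in Gstp-ps, so the split of counts among the Gstp genes, the 1 count of Gstp2 included, is uncertain. For Gstm1, 96.6% of windows were found in no other gene of the family, and 23.2% matched the pseudogene Gstm2-ps1 within 2 mismatches. Of the Gstm2-ps1 windows 7.35% occur exactly in Gstm1 and 64.2% match it within 2 mismatches. The other 7 members looked up, apart from Gstp1, Gstp2 and Gstm1, had no exact window in another family gene. Gstp-ps counts were 49 and 161 in control cells, 223 and 355 in LPS, 315 and 298 in AGE+LPS, and 211 and 283 in FruArg+LPS. With the counts of the Gstp genes summed as one feature, the log2 fold change was 1.68 in AGE+LPS (adjusted p = 0.00059 in edgeR) and 2.08 in FruArg+LPS (adjusted p = 0.00039 in edgeR) against control cells, both DEGs, and 0.98 for LPS alone, which was not. How far shared reads move Gstp1 was not tested beyond this sum. Gsta3, Gstm5 and Gsto1 overlap a gene on the opposite strand (Gm28836, 4933431E20Rik and Cfap43), and Mgst2 holds the predicted transcript Gm37261 on its own strand. The strand setting of the counting is not given in the sources used here, so the part of these overlapping genes in the 4 members' counts is uncertain.

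Promoter sequence of 250 bases before the RefSeq start was at hand for 9 of the 10 members, in 11 windows on GRCm38.p6, with no entry for Gsta4. The windows were read on both strands for the antioxidant response element core TGACNNNGC and for the AP-1 letters TGANTCA, which share their first letters and can overlap. The first occurs in 10.2% of 32851 promoter windows of all genes and the second in 6.75%. Counted by gene, the shares were 11.5% and 7.82% of 27025 genes. The element core was found in Gsta3, Gstm5 and Mgst1, and the AP-1 letters in Gstm5, Gstp1, Gstp2 and Mgst2. A match describes letters and not a binding site, and no match says only that these letters are not in the window. The windows that follow are printed 5′ to 3′ with either motif in capitals, those of the 3 genes that followed one another across libraries and of Mgst2, which LPS lowered and AGE co-treatment raised. They are Gsta3 at chr1:21240335-21240584 (plus strand), the more distant of the Gstm1 windows at chr3:108017974-108018223 (minus strand), Gstp1 at chr19:4037913-4038162 (minus strand) and Mgst2 at chr3:51660929-51661178 (plus strand). TGACATTGC lies 121 bases before the start in Gsta3, TGAGTCA 74 bases before it in Gstp1 and TGACTCA 52 bases before it in Mgst2, while Gstm1 holds neither motif in either of its windows.
Gsta3: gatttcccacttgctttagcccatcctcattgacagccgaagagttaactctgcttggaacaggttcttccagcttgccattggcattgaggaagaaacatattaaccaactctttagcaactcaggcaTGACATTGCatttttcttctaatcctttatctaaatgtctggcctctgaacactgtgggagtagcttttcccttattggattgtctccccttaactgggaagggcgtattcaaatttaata
Gstm1: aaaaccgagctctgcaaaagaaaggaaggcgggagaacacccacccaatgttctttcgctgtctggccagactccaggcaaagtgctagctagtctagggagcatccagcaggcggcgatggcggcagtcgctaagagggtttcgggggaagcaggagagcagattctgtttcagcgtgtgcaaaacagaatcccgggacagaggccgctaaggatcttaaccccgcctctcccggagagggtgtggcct
Gstp1: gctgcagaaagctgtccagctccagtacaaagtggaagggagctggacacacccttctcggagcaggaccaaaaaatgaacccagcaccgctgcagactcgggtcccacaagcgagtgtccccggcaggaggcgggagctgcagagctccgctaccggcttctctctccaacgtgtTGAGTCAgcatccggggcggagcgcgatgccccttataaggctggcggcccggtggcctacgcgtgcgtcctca
Mgst2: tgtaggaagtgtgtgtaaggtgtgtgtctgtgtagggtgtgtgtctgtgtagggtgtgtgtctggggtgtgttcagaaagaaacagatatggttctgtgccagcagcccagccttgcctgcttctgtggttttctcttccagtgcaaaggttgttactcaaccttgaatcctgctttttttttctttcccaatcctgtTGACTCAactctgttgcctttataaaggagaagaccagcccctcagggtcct

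The rest of the family and the glutathione pathway were described through 8 lists holding 95 gene names, 94 of them in the table. Against control cells, the list counts stand beside 11.5% of all genes up-regulated and 11.1% down-regulated in LPS, 7.64% and 7.41% in AGE+LPS, and 9.59% and 7.84% in FruArg+LPS. Among the other GSTs, 9 of 17 genes found were tested, and in LPS against control cells 3 were up-regulated and 1 was down-regulated, with a median log2 fold change of 0.65, which is unchanged with Gstt4 held at its bound. Gstt4, a theta-class gene, had 0 counts in both control libraries and 83 and 149 in LPS, at least 20.6-fold higher when 3 counts per control library are allowed. Gstm2 rose by 1.90 (SE 0.294, adjusted p = 0.0012 in edgeR), Gstp-ps by 1.03 (SE 0.243, adjusted p = 0.011 in edgeR), and Gstcd fell by 1.52 (adjusted p = 0.011 in edgeR). Against control cells, 3 of these 9 genes were up-regulated and 0 down-regulated in AGE+LPS (median 0.40) and again in FruArg+LPS (median 0.60). They were Gstm2 at 2.23 and 2.71, Gstp-ps at 1.59 and 1.78, and Gstt4 at least 9.09-fold and at least 6.74-fold higher. With the replicate block Gstt3 was added in AGE+LPS at 1.02.

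Genes that feed and recycle glutathione were measured beside the members. Of 8 synthesis and cysteine supply genes tested in LPS against control cells, 5 were up-regulated and 2 down-regulated (median 1.62), and by smallest p, which orders the named genes of each list, the first were the cystine carrier Slc7a11 at 3.64, Gss at 1.69 and the Slc7a11 partner Slc3a2 at 1.57. In AGE+LPS against control cells 6 were up-regulated and 1 down-regulated (median 1.24), with Slc7a11 at 3.86, Gclm at 2.62 and Slc3a2 at 1.25, and in FruArg+LPS 5 and 0 (median 1.87), with Slc7a11 at 4.27, Gclm at 2.99 and Slc3a2 at 1.95. Of 10 reduction, peroxidase and glutaredoxin genes, LPS up-regulated 1 and down-regulated 3 (median -0.37), with glutathione reductase Gsr at 2.20, Glo1 at -1.95 and Hagh at -1.10. In AGE+LPS 2 and 0 of these 10 were DEGs against control cells (median -0.37), Gsr at 2.50 and Prdx6 at 1.34, and in FruArg+LPS 2 and 1 (median -0.25), Gsr at 2.61, Prdx6 at 1.69 and Glrx2 at -1.37.

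Conjugate breakdown had 7 genes tested, with Ggct up-regulated at 1.17 and Anpep down-regulated at -1.06 in LPS (median 0.39), and Anpep alone down-regulated in AGE+LPS at -2.10 (median -0.05) and FruArg+LPS at -1.09 (median 0.35) against control cells. With the replicate block Chac2 was added in AGE+LPS at 1.12. Of 7 export genes, the conjugate pump Abcc1 was up-regulated against control cells at 1.97 in LPS, 2.73 in AGE+LPS and 2.91 in FruArg+LPS. In LPS 2 export genes were up-regulated and 2 down-regulated (median 0.07), with Abcc5 at 1.27 and Abcc3 at -1.55, in AGE+LPS Abcc1 was the 1 DEG (median 0.16), and in FruArg+LPS 3 were up-regulated (median 0.11), with Abcc5 at 1.52 and Abcc4 at 1.21. Among 10 genes of Nrf2 and its regulators, 5 were up-regulated in LPS (median 0.78), first by p Sqstm1 at 2.71, Maff at 2.84 and Mafk at 2.43, 3 in AGE+LPS (median 0.64), which were Maff at 3.15, Sqstm1 at 2.82 and Nfe2l1 at 1.00, and 5 in FruArg+LPS (median 1.01), first by p Maff at 3.46, Sqstm1 at 3.19 and Mafk at 1.61. The replicate block left Mafg at 0.99 in LPS and Nfe2l1 at 0.998 in AGE+LPS under the 2-fold minimum. Of 18 other Nrf2 targets, 9 were up-regulated and Ephx1 down-regulated in LPS (median 1.07), first by p Srxn1 at 3.19, Txnrd1 at 2.40 and Hmox1 at 2.16. In AGE+LPS 12 of these targets were up-regulated (median 1.22), first by p Txnrd1 at 2.30, Srxn1 at 3.02 and Blvrb at 1.98, and in FruArg+LPS 13 (median 1.61), first by p Blvrb at 2.71, Txnrd1 at 2.90 and Srxn1 at 3.84. By size of change other genes stood higher than some of these, among them Nqo1 at 4.18 in AGE+LPS, Hmox1 at 3.39 in FruArg+LPS and Gclm at 1.91 in LPS. DESeq2 put Abcg2 in LPS at -0.997 and Slc1a5 in AGE+LPS at -0.98, short of the 2-fold that both passed in edgeR.

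Against LPS alone, and between the co-treatments, edgeR without a block and with its expression filter called none of the 73 listed genes tested. In AGE+LPS against LPS 21 of them had an unadjusted p under 0.05, as did 2194 of all 12317 genes, DESeq2 called 5, beside 528 of 21850 genes, and the replicate block gave 6 up-regulated and 5 down-regulated, beside 4.91% and 4.82% of all genes. The blocked values of the first group were 1.91 for Nqo1, 1.59 for Slc1a4, 1.57 for Glo1, 1.28 for Ephx1, 1.10 for Cth and 1.00 for Abcc3. Those down-regulated with the block were Mafk at -1.49, Gsto2 at -1.19, Gstt4 at -1.17, Oplah at -1.11 and Anpep at -1.01. In FruArg+LPS against LPS 22 had an unadjusted p under 0.05, as did 1543 of all 12071 genes, and DESeq2 called 5, beside 195 of 21303 genes. With the block, where 2.87% of all genes were up-regulated and 3.48% down-regulated, 7 were up-regulated, Ephx1 at 1.80, Ftl1 at 1.48, Alox5ap at 1.43, Hmox1 at 1.23, Gclm at 1.13, Abcc3 at 1.12 and Slc1a4 at 1.06, and Gstt4 was down-regulated at -1.57. In FruArg+LPS against AGE+LPS 12 had an unadjusted p under 0.05, as did 668 of all 11915 genes, and DESeq2 called 0, beside 4 of 20504 genes, and with the block, beside 0.546% and 0.352% of all genes, Hmox1 at 1.19 and Ftl1 at 1.08 were up-regulated. The median log2 fold change over the 73 genes was 0.10 for AGE+LPS against LPS, 0.34 for FruArg+LPS against LPS and 0.20 between the co-treatments.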

How the data were processed

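The deposited table of raw read counts for 46078 genes by 8 libraries was made by the authors from 100-base single-end reads, trimmed with fastx_toolkit, aligned to GRCm38 with TopHat2 and counted with featureCounts; tool versions, annotation release, strand setting and multi-mapping rule are not given in the sources used here, and the RNA kit is RNeasy in the labels and TRIzol in the study's methods. Ensembl IDs were paired with GENCODE symbols. In R 4.3.3, edgeR 4.0.16 (filterByExpr, TMM, two-sided quasi-likelihood F-test, Benjamini-Hochberg over all genes tested) was run on the 4 libraries of each pair of groups, and the code was tested on simulated data. DESeq2 1.42.0 and the other alternatives are in the closing section. Replicate numbers pair libraries by lane: deviations from group means correlated at 0.245 to 0.631 over 12874 genes. All 10 members are named, and of each list at most 3 genes with the smallest p per comparison and every gene where 3 or fewer were called; Gstcd, Ephx1 in LPS, Mafg, Abcg2, Slc1a5 and the genes named by size of change were named after their values were seen. The members and lists were chosen with earlier results of these data known. Promoters are from RefSeq.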

Additional observations from a re-analysis of the deposited data

How the results depend on the processing

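Calls rest on 2 libraries per group, and the control libraries differ in depth. DESeq2 size factors in edgeR (RLE) and a filter of at least 10 counts in every library left the members' calls as they were. The replicate block changed no member's call other than Gsta3 in AGE+LPS against LPS and the 5 in FruArg+LPS against LPS; the cause was not tested. The number of members called went from 3 to 5 in LPS against control cells with no fold minimum, and to 2 to 6 with 1 library left out, where a lone library is assumed to vary like those of the other group. In AGE+LPS against LPS it went from 1 to 2 with DESeq2, with at least 1 count or with the replicate block, and to 1 to 2 with 1 library left out. In FruArg+LPS against LPS it went from 0 to 4 with DESeq2, 4 with at least 1 count, 5 with the replicate block, and 0 to 5 with 1 library left out. For LPS against control cells, the count over all genes with no fold minimum is not given here. The fits of that comparison with 1 library left out rest on a lone library in a group. The member counts under both settings therefore describe the members alone and do not set them apart from all genes. With scaling by library size Gsto1 was at -0.19 in LPS and -0.37 in FruArg+LPS against control cells and -0.037 in FruArg+LPS against AGE+LPS, and Gstm5 at -0.39 and Mgst2 at -0.0325 in FruArg+LPS against control cells. There Gstm5 was also at -0.0496 with at least 1 count, -0.0261 with at least 10 counts and -0.0143 with all 4 groups in one fit, and Gsto1 at -0.0265 with at least 1 count. With 1 library left out Mgst1 ran from -0.30 to 0.18 in FruArg+LPS against LPS, Gsta3 from -0.0165 to 0.69 in FruArg+LPS against AGE+LPS, Gsto1 from -0.25 to 0.13 in AGE+LPS against control cells, and in FruArg+LPS against control cells Gstm5 ran from -0.20 to 0.26 and Gsto1 from -0.17 to 0.22. Over all genes, AGE+LPS against LPS gave 98 DEGs, and 528 with DESeq2, 927 with at least 1 count, 376 with 4 groups in one fit, 1199 with the replicate block and 349 to 646 with 1 library left out. FruArg+LPS against LPS gave 0, and 195, 503, 5, 766 and 5 to 1549 in that order, and FruArg+LPS against AGE+LPS gave 0, and 4, 40, 0, 107 and 10 to 233, while FruArg+LPS against control cells gave 2098, and 3416 without FruArg+LPS replicate 2. Library size scaling changed 1485 up-regulated and 1433 down-regulated genes in LPS against control cells to 932 and 2666, 951 and 922 in AGE+LPS to 683 and 1385, and 1154 and 944 in FruArg+LPS to 708 and 1936; against LPS, 36 and 62 in AGE+LPS became 73 and 61. It moved the median of all genes to -0.24 in AGE+LPS and -0.40 in FruArg+LPS against control cells, to 0.15 in AGE+LPS against LPS and to -0.15 between the co-treatments.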

Other observations

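A list of 5 genes held relatives by GST or MAPEG fold that take part in eicosanoid synthesis. In LPS against control cells Ptges, which makes prostaglandin E2, was up-regulated by 1.22 (SE 0.399, adjusted p = 0.045 in edgeR) and Ltc4s, the leukotriene C4 synthase, fell by 2.45 (SE 0.709, adjusted p = 0.027 in edgeR), with a list median of -0.27. DESeq2 called neither (adjusted p = 0.15 and 0.12), and Ltc4s rested on 7 and 22 counts in control cells and 1 and 6 in LPS. Against control cells 0 of 5 were called in edgeR in AGE+LPS (median -0.07) and 0 of 5 in FruArg+LPS (median 0.44), and with the replicate block Ltc4s was down-regulated in AGE+LPS at -1.75. Alox5ap, the 5-lipoxygenase activating protein, stood at 177 ± 23.3 CPM in control cells, 88.3 ± 5.28 in LPS, 170.6 ± 10.1 in AGE+LPS and 235 ± 56.0 in FruArg+LPS (SD, n = 2).

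Some relatives of the members were picked out after their values were seen. The pseudogene Gstm2-ps1 had 23 and 113 counts in control cells, 144 and 192 in LPS, 182 and 209 in AGE+LPS, and 189 and 183 in FruArg+LPS. It was a DEG in edgeR against control cells at 1.66 in AGE+LPS and 2.11 in FruArg+LPS, while in LPS it was at 0.996 and not a DEG, was a DEG with the replicate block, and was not called by DESeq2. As 64.2% of its windows match Gstm1 within 2 mismatches, the part of Gstm1 reads in its counts is uncertain and was not tested. Gstt4, at 0 in both control libraries, had 10.3 and 14.1 CPM in LPS, 6.63 and 4.16 in AGE+LPS and 2.94 and 5.06 in FruArg+LPS, so both LPS libraries were the highest. Gstz1, a zeta-class enzyme of tyrosine breakdown, had 15.1 and 24.1 CPM in control cells, 8.06 and 12.02 in LPS, 15.0 and 22.2 in AGE+LPS, and 13.1 and 11.3 in FruArg+LPS, and was not a DEG in edgeR in any comparison. In LPS against control cells Gstz1 passed the adjusted p but missed the 2-fold minimum, at -0.98 (SE 0.316, adjusted p = 0.042 in edgeR).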
